A study of Mus musculus with 8 samples.

Results

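The genes described here encode the proteins of the cytosolic ribosome. They were chosen as the array's non-control probes whose accession maps to a mouse symbol made of Rpl or Rps and a number, together with Rpsa, Rplp0, Rplp1 and Rplp2, and each gene was read by its brightest probe. Kinases of the Rps6k family, pseudogene symbols with -ps, and Rps19bp1 and Rps23rg1, which do not name ribosomal proteins, were left out. The rule found 83 genes of 32665 on the array, 32 of the small and 51 of the large subunit, by 118 probes. The 32665 count each accession without a mapped symbol as a gene, as do all later counts over all genes. All 83 passed the filter on dim probes, and 81 of them were well above background on all 8 arrays.

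The RNA came from macrophages of breast tumours in C57BL/6 mice. The 4 KO samples are macrophages from tumours grown in hosts that lack ATF3, a stress-induced transcription factor, and the 4 WT samples are macrophages from tumours in wild-type hosts. In both groups the tumours grew from implanted PyMT breast cancer cells for about 21 days, and cells positive for CD45 and for the macrophage surface protein encoded by Adgre1 were sorted. The labels used here do not give the ages of the mice, the design of the ATF3 deletion, or whether each sample is a separate mouse, so p-values measure the spread between these samples only. The labels do not say whether the implanted tumour cells carried the deletion, and the host genotype is what separates the groups.

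Ribosomal proteins assemble with ribosomal RNA in the nucleolus into a small subunit, which reads the mRNA, and a large subunit, which joins the amino acids. Each protein is needed in about the same number of copies, and the genes are known to be expressed together. Their mRNAs begin with a terminal oligopyrimidine tract (TOP), a run of C and T bases through which the kinase mTOR controls their translation. In macrophages, growth signals and inflammatory stimuli are known to act on ribosome production and on the translation of these mRNAs. ATF3 belongs to the ATF/CREB family, whose members bind the palindrome TGACGTCA.

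Promoter windows of 300 bases, 250 before and 50 after each annotated start, were available from RefSeq (GRCm38.p6) for 63 of the 83 genes, in 75 windows. The windows were found by gene symbol, since the array headers name mm9. The full ATF/CRE palindrome TGACGTCA was present in 6.67% of these windows and in 1.79% of all 32851 windows of the table. The 5 genes that hold it are shown because they are the members whose promoter letters bear most directly on a deletion of ATF3, and the capitals mark the palindrome.
Rps9: gcggtgcgtgaTGACGTCActacaaggcga
Rpl18: tcgcgctcatgTGACGTCAcccgtgcacca
Rpl27a: gccgggagccgTGACGTCAggagcccttcc
Rpl13: gcgggttcgcgTGACGTCActtccctttcg
Rpl26: cctccgagggaTGACGTCAggacccctcgc

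All 5 windows lie on the plus strand of GRCm38.p6. They are chr7:3703973-3704002 for Rps9, chr7:45717981-45718010 for Rpl18, chr7:109519087-109519116 for Rpl27a, chr8:123102315-123102344 for Rpl13 and chr11:68901421-68901450 for Rpl26. The palindrome begins at position −57 from the annotated start in Rps9, −79 in Rpl18, −97 in Rpl27a, −24 in Rpl13 and −134 in Rpl26. The shorter core TGACGT, which the palindrome contains on both strands, was found on either strand in 17.3% of the member windows and 7.51% of all windows. The AP-1 site TGANTCA, a target of JUN and FOS dimers, was found on either strand in 2.67% of the member windows and 7.81% of all windows. The ETS core CGGAAG, on either strand, was the most frequent of the motifs searched, in 61.3% of the member windows against 16.9% of all windows. The pyrimidine tract CTTTCC, searched on the sense strand only, was found in 38.7% against 14.1%. A match describes these letters and is not evidence of binding.

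An ETS core is shown for Rpl31, whose values are described further on. It lies at chr1:39367849-39367878 on the plus strand of GRCm38.p6, and the capitals mark the core.
Rpl31: tccccgtgaccCGGAAGttgtacggctacg

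No ribosomal protein gene was called between KO and WT macrophages. KO sample 1 stood high and WT sample 4 low for most of these genes, so the direction of the set is given with and without them. The comparison asks how macrophages differ when the host lacks ATF3. The limma fit over 20870 genes called 0 of them at the adjusted threshold of 0.05 (0%), and 696 reached an unadjusted p under 0.05 (3.33%). Of the 83 ribosomal protein genes, 0 passed the adjusted threshold and 0 had an unadjusted p under 0.05. The smallest unadjusted limma p among them was 0.128, and the adjusted p was 0.9999 for each. The limma fit draws each gene's variance toward that of all genes tested. Where a gene's own spread is low, as in most of these genes, this widens standard errors and intervals and raises p-values. Rpl31 had SDs of 0.064 in KO and 0.11 in WT samples, and a limma standard error of 0.14. The counts of 0 therefore do not rest on each gene's own spread alone. In bulk samples, fewer cells of a type and less RNA per cell cannot be told apart.

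The differences were small and the intervals narrow. The median log2 difference, KO minus WT, was 0.026 over the 83 genes, against −0.0086 over all genes tested. In 58 genes the KO mean was above the WT mean and in 25 below (48.6% of all genes tested lay above). The absolute log2 difference was under 0.25 in 81 of the 83 genes, against 61.3% of all genes tested. The 95% interval of the difference lay inside a 2-fold change either way for 81 of 83 genes, against 51.3% of all genes tested, and inside a 1.5-fold change for 77 of 83, against 18.6%. Among the 17170 genes well above background on all 8 arrays, these shares were 61.2% and 22.5%. The 6 ribosomal protein genes with a wider interval than 1.5-fold were Rpl39, Rps27a, Rpl27a, Rpl21, Rpl3l and Rpl39l, and only Rpl3l and Rpl39l reached beyond 2-fold. Other mRNAs with a TOP tract (90%), elongation and termination factors (90.9%) and initiation factors (86.1%) had similar shares inside 1.5-fold. Ribosome assembly factors (60.5%) and mitochondrial ribosomal proteins (51.3%) had lower shares.

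The direction over the whole set turned when either of those 2 samples was left out. The median log2 difference was −0.030 without KO sample 1 and −0.024 without WT sample 4, and in each case 30 of the 83 genes were above 0. The median over all genes tested was −0.028 in both runs, with 46.3% and 46.0% above 0, so the set then lay close to all genes. It was 0.018 within slide 1 (samples 1 and 2 of each genotype) and 0.044 within slide 2 (samples 3 and 4). Other scales kept more genes above 0 than below, with 61 above and 22 below after quantile normalization, 60 and 23 with the median of bright probes as scale, and 56 and 27 in the authors' deposited table. In that order, 51.0%, 48.8% and 50.1% of all genes lay above 0. Normexp background correction moved the median of all genes to −0.14 and that of the ribosomal protein genes to 0.20, with 80 above 0 and 3 below, and the smallest limma adjusted p among them was then 0.878. Of all genes, 38.5% lay above 0 with normexp. With each array centred on these genes themselves, a setting added after the data were seen, which by construction puts their split near even (42 above 0 and 41 below), 0 had an unadjusted limma p under 0.05, against 3.67% of all genes.

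**Figure D1:**
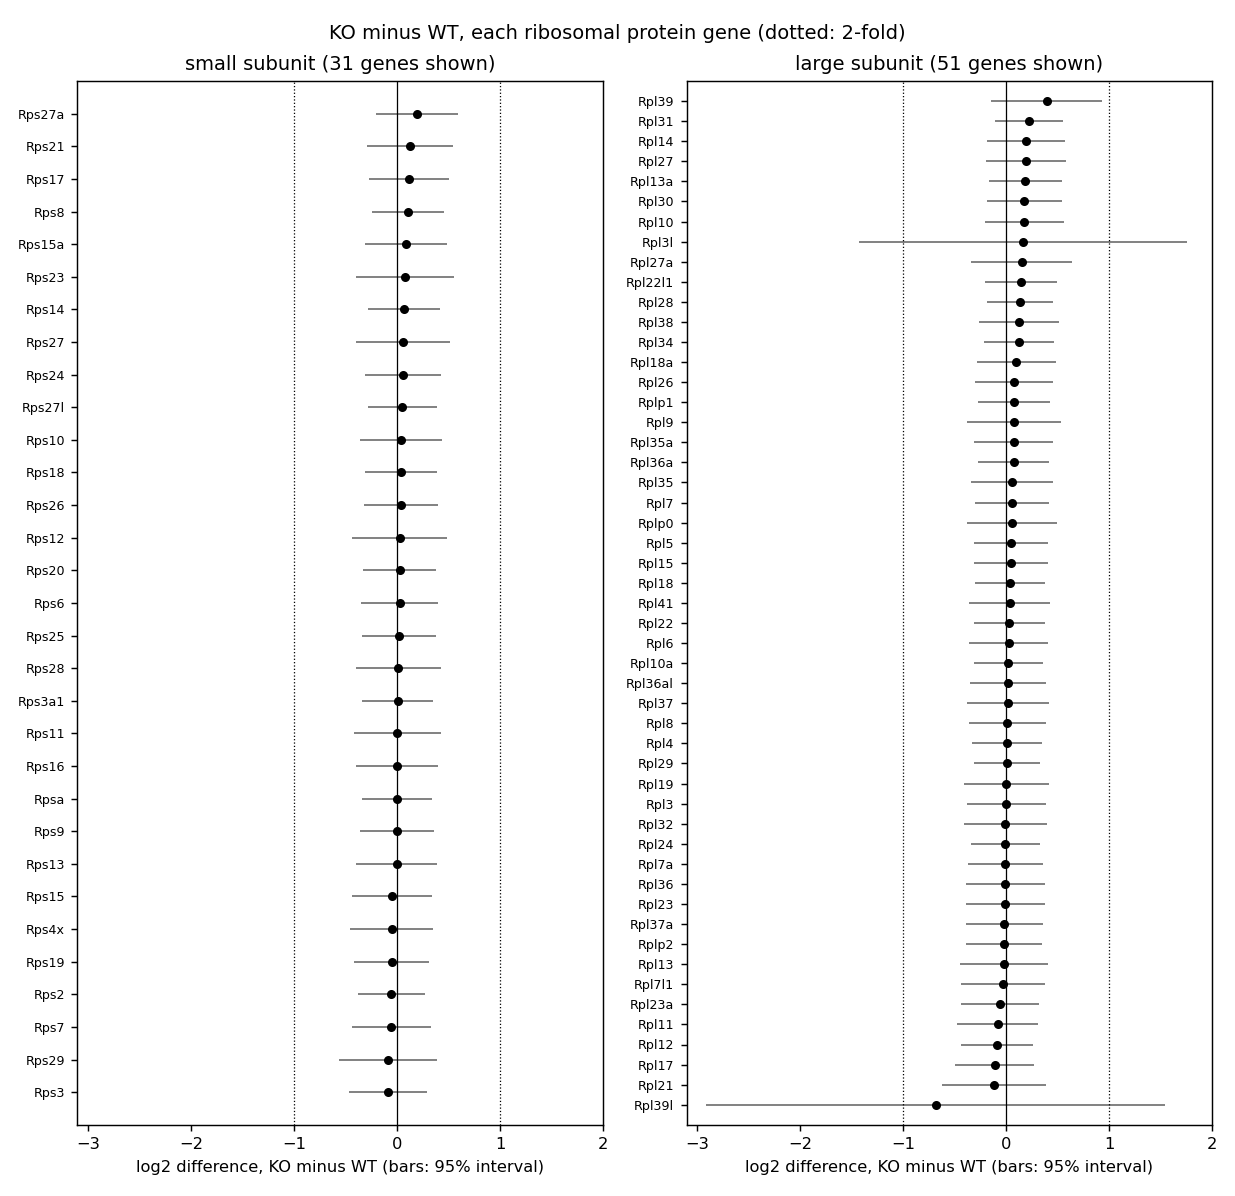
Log2 difference, KO minus WT, on the horizontal axis for 31 small subunit genes (left) and 51 large subunit genes (right); points are estimates, bars 95% intervals and dotted lines a 2-fold change. All points except Rpl39l (−0.68) and Rpl39 (0.39) lie within 0.25 of 0, and only Rpl3l and Rpl39l have bars beyond the dotted lines.

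The 2 subunits gave like values. The 32 small subunit genes had a median log2 difference of 0.024, with 22 above 0, 10 below and 0 at an unadjusted p under 0.05. The 51 large subunit genes had a median of 0.036, with 36 above 0, 15 below and likewise 0 at that level. The difference between subunits was not tested. Genes mutated in Diamond-Blackfan anaemia, a red cell disorder of ribosome production, had a median of 0.047 over 18 genes tested, 14 of them above 0. Proteins that line or flank the tunnel through which the growing chain leaves had a median of 0.032 over 9 genes. Proteins of the decoding centre and mRNA path had a median of −0.0009 over 7 genes.

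Most ribosomal protein genes moved together from array to array. Each gene's value was set against its own mean over the 8 arrays, on a log2 scale relative to the array's 75th percentile. The median of these deviations over the genes was 0.23, −0.075, −0.0033 and −0.066 in KO samples 1 to 4, and 0.068, 0.065, −0.015 and −0.15 in WT samples 1 to 4. KO sample 1 stood highest and WT sample 4 lowest, and the groups overlapped. Of 82 genes measured on all arrays, 61 (74.4%) had their highest value in KO sample 1, where 13.8% of all genes had theirs. WT sample 4 held the lowest value of 44 (53.7%), where it held the lowest of 21.0% of all genes. Small and large subunit genes shifted alike, by 0.24 and 0.23 in KO sample 1 and by −0.14 and −0.16 in WT sample 4.

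The shared shift was largely absent after quantile normalization and in the authors' deposited table. Quantile normalization gives every array the same distribution of values, which can itself flatten a shift shared by bright genes. The shift by array was not computed with the median of bright probes as scale. After quantile normalization the median deviation was 0.047 in KO sample 1 and −0.022 in WT sample 4. In the authors' deposited table, which has quantile-like columns, it was 0.029 and −0.032, and KO sample 4 was then highest, at 0.066 under both. The median deviation of all genes on the main scale was 0.067 in KO sample 1 and −0.029 in WT sample 4. For genes well above background on all arrays it was 0.059 and −0.057.

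**Figure D2:**
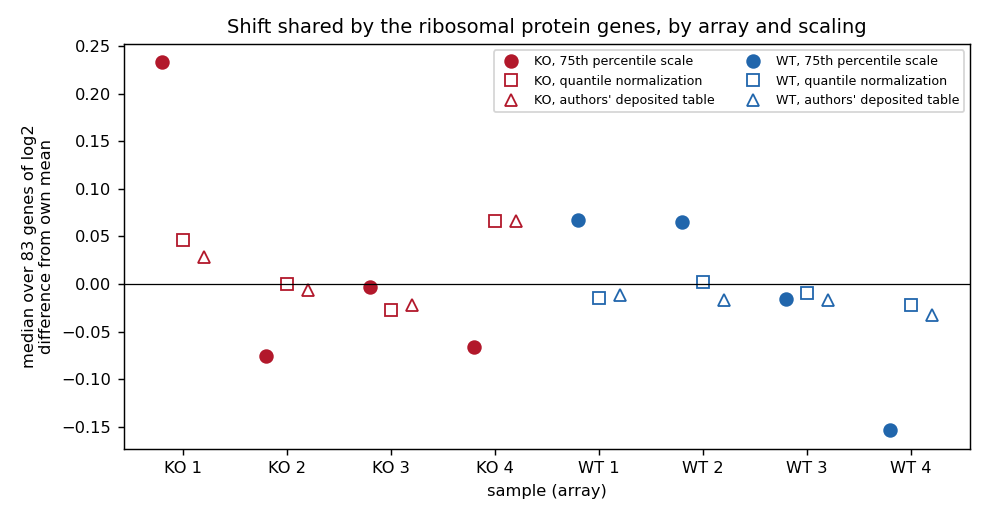
Median over the 83 genes of the log2 deviation from each gene's own mean, for the 4 KO arrays (red) and 4 WT arrays (blue), under the 75th percentile scale (filled circles), quantile normalization (squares) and the authors' deposited table (triangles). Among the scales shown, KO 1 at 0.23 and WT 4 at −0.15 stand apart only on the 75th percentile scale.

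**Figure D3:**
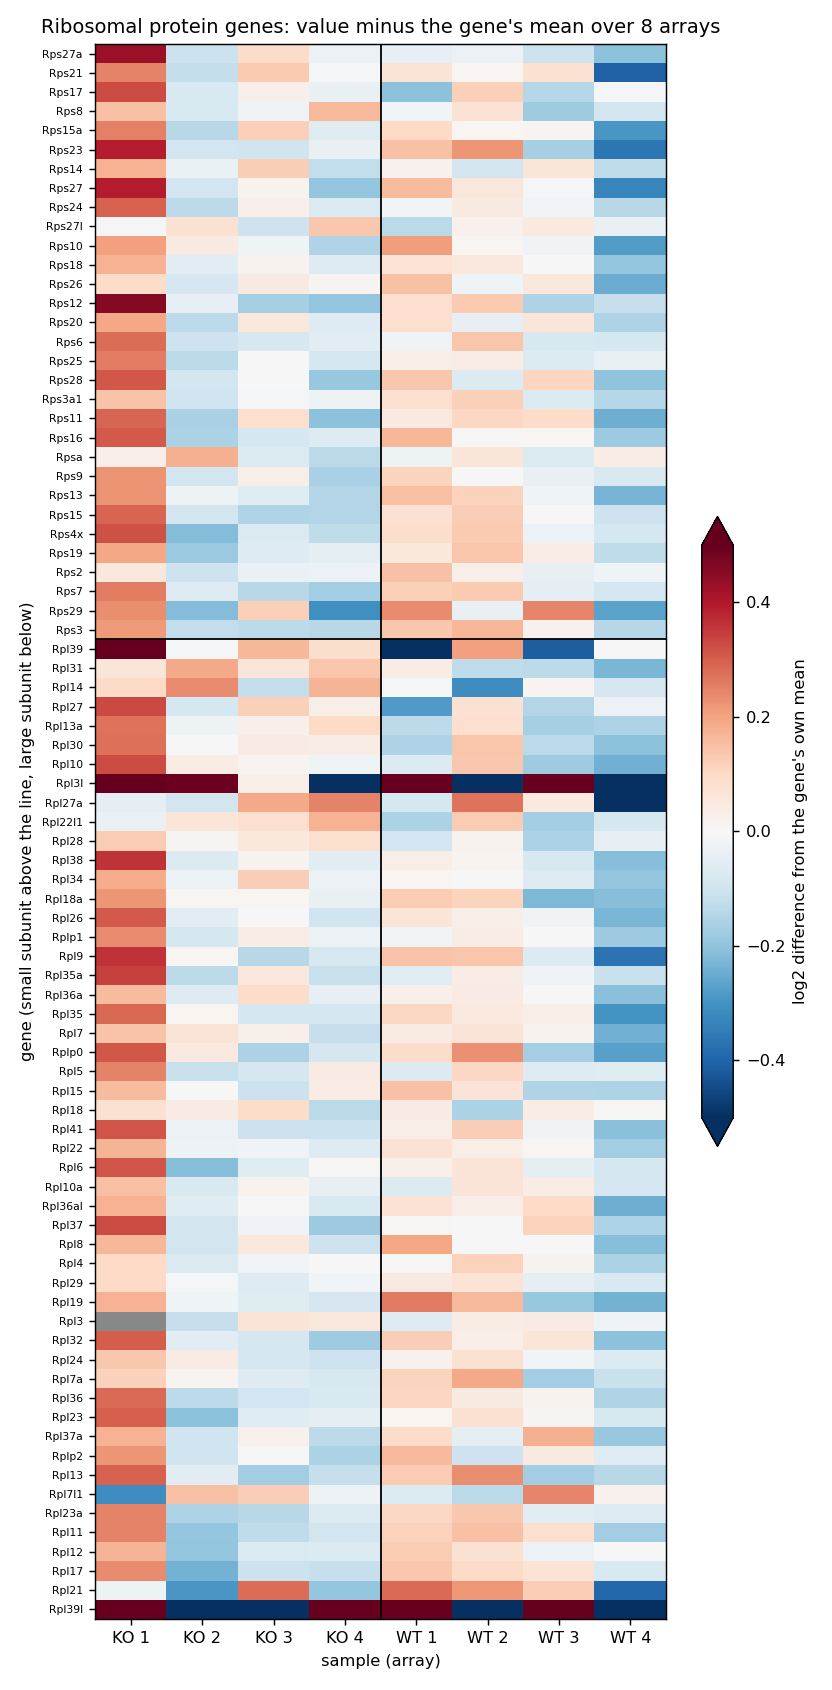
Heat map of 82 ribosomal protein genes (rows, small subunit above the black line) in each array (columns, KO left of WT), coloured by the log2 difference from the gene's own mean over 8 arrays; grey marks the 1 value left out and colours end at 0.5 either way. KO 1 is red in most rows and WT 4 is blue in most, with 77 of 82 measured members above their mean in KO 1 and 3 of 83 in WT 4.

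Within these shifts, the genes varied little. The SD of a gene over the 8 arrays had a median of 0.15 over the ribosomal protein genes, against 0.47 over all genes tested and 0.40 over the 17170 genes well above background on all arrays. It was under 0.25 for 78 of the 83 genes, against 19.6% of all genes tested and 23.7% of those 17170. Subtracting each array's median deviation left a median SD of 0.090. That deviation is taken from these same genes, so some fall is built in. Not every gene followed it: the SD rose from 0.090 to 0.17 in Rps27l and from 0.097 to 0.15 in Rpsa. The lowest SD was 0.065, for Rpl29, named after its value was seen. Rpl39l (1.47), Rpl3l (1.01) and Rpl39 (0.35) had the highest. Low spread was not particular to the ribosomal protein genes. The median SD was 0.14 for other mRNAs with a TOP tract, 0.15 for elongation and termination factors and 0.17 for initiation factors. It was 0.20 for ribosome assembly factors and 0.23 for mitochondrial ribosomal proteins.

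The replicate numbers of the labels were taken as pairs from correlations in the data. For number 2 the correlation (0.14) was no higher than for some differently numbered samples. Within same-numbered pairs, the median KO minus WT difference over the genes was 0.14, −0.14, −0.0003 and 0.10 for numbers 1 to 4, with 72 of 82, 10 of 83, 41 of 83 and 64 of 83 genes above 0. Pairs 1 and 4 thus lay above 0 and pair 2 below. Over all genes tested the medians were 0.021, −0.076, −0.012 and −0.0021. With the number as a block, the count of ribosomal protein genes with an unadjusted limma p under 0.05 was again 0, while that of all genes was 1576 (7.55%).

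The member with the smallest p was Rpl39, a small protein at the wall of the exit tunnel. It measured 4.99, 4.44, 4.62 and 4.54 in KO samples 1 to 4, against 3.87, 4.65, 4.04 and 4.45 in WT samples 1 to 4. The groups overlapped, with WT samples 1 and 3 below all others. The log2 difference was 0.39 with a standard error of 0.23 (95% interval −0.14 to 0.93, limma adjusted p = 0.9999). Its difference was the highest of all 83, and it ranged from 0.27 to 0.53 when samples were left out.

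Rpl31, a protein at the rim of the exit tunnel, was the only member whose groups did not overlap, which held for 2.12% of all genes tested (0.757% with KO higher and 1.36% with KO lower, a pattern seen in 0 members). It measured 1.99, 2.12, 1.99 and 2.07 in KO samples 1 to 4, against 1.97, 1.80, 1.80 and 1.70 in WT samples 1 to 4. The gap between the groups was narrow, between KO sample 3 and WT sample 1. The log2 difference was 0.22 with a standard error of 0.14 (95% interval −0.11 to 0.56, limma adjusted p = 0.9999). A second Rpl31 probe, well above background on all 8 arrays, gave −0.077.

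None of the genes next in the order passed, each with a limma adjusted p = 0.9999. Rpl13a, known from human cells for leaving the ribosome to silence inflammatory mRNAs, measured 5.88, 5.59, 5.63 and 5.71 in KO samples 1 to 4, against 5.48, 5.69, 5.44 and 5.45 in WT samples 1 to 4. WT sample 2 lay within the KO range and the other WT samples below it. The log2 difference was 0.19 with a standard error of 0.15.

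Rps27a, made as a fusion with ubiquitin that is then cut off, measured 5.19, 4.65, 4.85 and 4.73 in KO samples 1 to 4, against 4.72, 4.73, 4.66 and 4.55 in WT samples 1 to 4. KO sample 1 stood above the rest and the others overlapped. The log2 difference was 0.19 with a standard error of 0.17, and 0.079 at its lowest when samples were left out. Fau, which encodes a ribosomal protein fused to a ubiquitin-like protein and falls outside the symbol rule, differed by 0.023.

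Large subunit genes made up most of the others among the first 12 by p. Their log2 differences were 0.19 for Rpl14, 0.19 for Rpl27, 0.18 for Rpl30, 0.18 for Rpl10, 0.14 for Rpl28, 0.14 for Rpl22l1 and 0.12 for Rpl34. Standard errors ran from 0.14 (Rpl28) to 0.17 (Rpl27). Rpl10 is a late-joining protein of the large subunit near the catalytic centre. Its values were 6.20, 5.91, 5.89 and 5.85 in KO samples 1 to 4, against 5.80, 6.01, 5.69 and 5.63 in WT samples 1 to 4. WT sample 2 exceeded 3 of the 4 KO samples, so the groups overlapped.

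**Figure D4:**
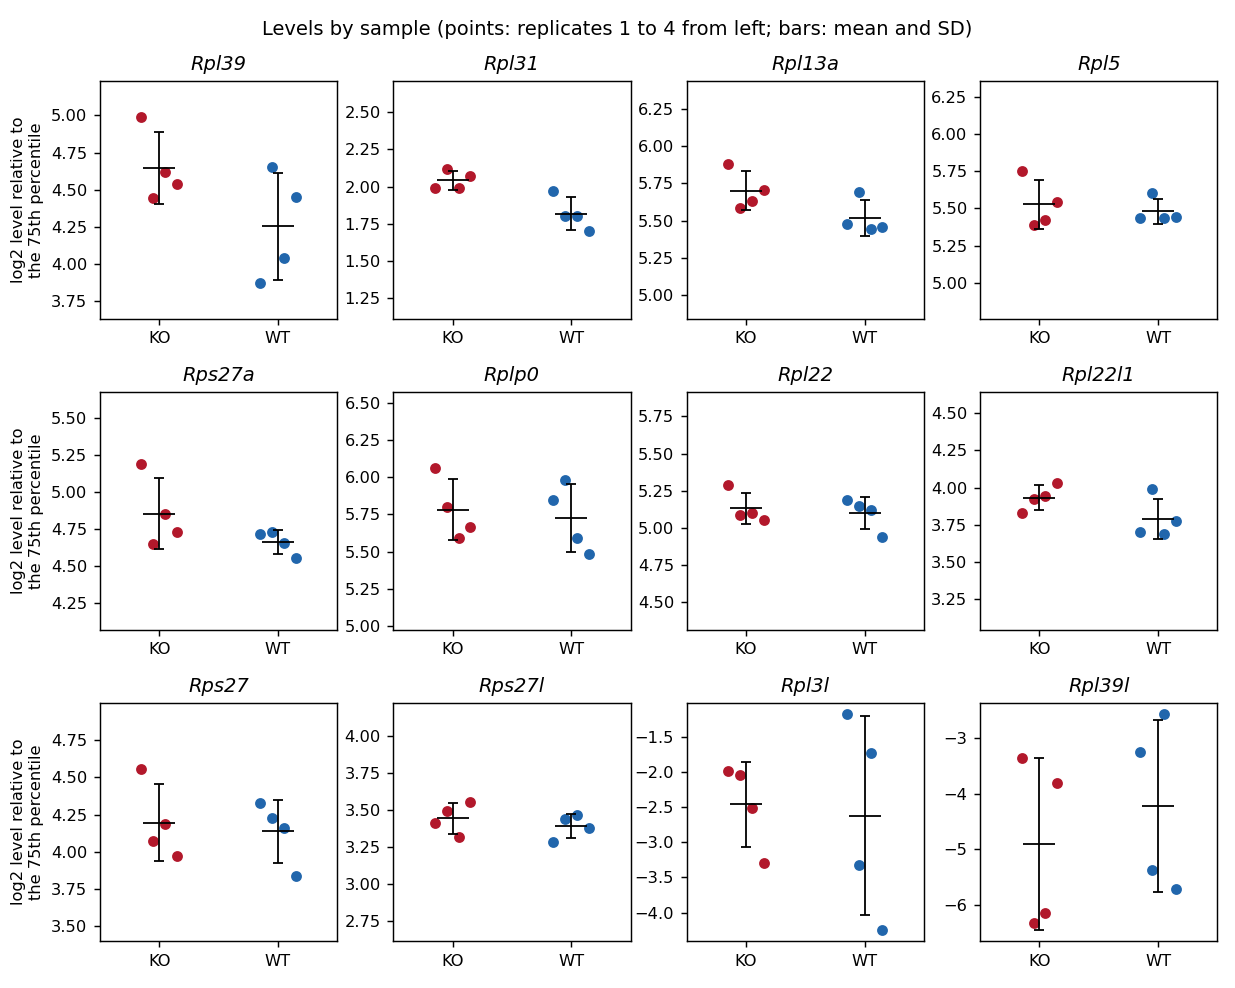
Log2 level relative to the array's 75th percentile (vertical axis, range set per panel) of 12 ribosomal protein genes in KO (red, left) and WT (blue, right) samples; points are replicates 1 to 4 from left, bars mean and SD. Groups overlap in every panel except Rpl31, and the values of Rpl3l and Rpl39l spread over more than 2 log2 units.

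The stalk proteins, which recruit the elongation factors to the large subunit, did not differ beyond their spread. Rplp0 averaged 5.78 ± 0.21 in KO and 5.73 ± 0.23 in WT samples (SD, n = 4 each). Rplp1 averaged 4.77 ± 0.14 in KO and 4.69 ± 0.10 in WT, and Rplp2 5.59 ± 0.17 in KO and 5.61 ± 0.12 in WT. The log2 differences were 0.057, 0.077 and −0.020 in that order, with standard errors of 0.15 to 0.19. A second Rplp0 probe gave −0.066.

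Rpl5 and Rpl11 bind the small ribosomal RNA of the large subunit and, when ribosome assembly stalls, the p53 regulator MDM2. Rpl5 measured 5.75, 5.39, 5.42 and 5.55 in KO samples 1 to 4, against 5.43, 5.61, 5.44 and 5.44 in WT samples 1 to 4. Rpl11 measured 4.48, 4.04, 4.10 and 4.14 in KO samples 1 to 4, against 4.34, 4.38, 4.31 and 4.05 in WT samples 1 to 4. In both genes KO sample 1 was highest and the other samples of the groups overlapped. The differences were 0.048 (95% interval −0.31 to 0.41) and −0.082 (−0.48 to 0.31).

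Among small subunit proteins, Rps6 is the one phosphorylated by the S6 kinases downstream of mTOR. It averaged 5.77 ± 0.18 in KO and 5.74 ± 0.11 in WT samples (SD, n = 4 each), a log2 difference of 0.024. Rpsa, also known as a laminin receptor, averaged 6.23 ± 0.14 in KO and 6.23 ± 0.059 in WT, a difference of −0.0003 (95% interval −0.34 to 0.34). A second Rpsa probe gave 0.33 with a standard error of 0.42. Rps3, at the mRNA entry and known to bind NF-kB, differed by −0.089 (0.040 through a second probe), and Rps19, the gene most often mutated in Diamond-Blackfan anaemia, by −0.051. With normexp background correction, which lifted these genes relative to all others, Rps3 gave 0.039 and Rps19 0.066.

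The 5 genes with the ATF/CRE palindrome lay among the others. They were named for their promoter letters after their values were seen. Log2 differences were −0.00085 for Rps9, 0.037 for Rpl18, 0.15 for Rpl27a, −0.022 for Rpl13 and 0.077 for Rpl26, and each had a limma adjusted p = 0.9999. Rpl27a measured 1.34, 1.29, 1.57 and 1.63 in KO samples 1 to 4, against 1.29, 1.65, 1.43 and 0.85 in WT samples 1 to 4. WT sample 4 was the lowest, and the difference was −0.0018 without it. It was −0.16 within slide 1 and 0.46 within slide 2. The 12 genes with at least the shorter core had a median difference of 0.023, with 8 above 0 and 4 below, and 0 at an unadjusted p under 0.05, against 0.026 over all 83.

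Several members are paralogs, second copies of a ribosomal protein gene whose products can take the parent's place. Rpl22l1, which can replace Rpl22, measured 3.83, 3.92, 3.94 and 4.03 in KO samples 1 to 4, against 3.70, 3.99, 3.69 and 3.77 in WT samples 1 to 4. WT sample 2 lay among the KO samples and the other WT samples below them. Rpl22 itself measured 5.29, 5.09, 5.10 and 5.05 in KO samples 1 to 4, against 5.19, 5.15, 5.12 and 4.94 in WT samples 1 to 4, with the groups overlapping. The log2 difference was 0.14 for Rpl22l1 and 0.032 for Rpl22.

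Rps27l, a p53 target in human cells and paralog of Rps27, measured 3.41, 3.50, 3.32 and 3.55 in KO samples 1 to 4, against 3.28, 3.44, 3.47 and 3.38 in WT samples 1 to 4. Rps27 measured 4.56, 4.07, 4.18 and 3.97 in KO samples 1 to 4, against 4.33, 4.22, 4.16 and 3.84 in WT samples 1 to 4. Rps27 was highest in KO sample 1 and lowest in WT sample 4, and Rps27l was highest in KO sample 4 and lowest in WT sample 1. Their differences were 0.052 for Rps27l and 0.060 for Rps27. Rpl36al and Rpl36a differed by 0.018 and 0.074, and Rpl7l1, which acts in large subunit assembly, by −0.033. The difference between a paralog's response and its parent's was not tested.

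Rpl3l and Rpl39l are paralogs known from muscle and from testis. Both were dim here and their probes varied more than any other member's. Rpl3l measured −1.98, −2.05, −2.51 and −3.29 in KO samples 1 to 4, against −1.18, −3.33, −1.73 and −4.25 in WT samples 1 to 4. The log2 difference was 0.16 with a standard error of 0.69, and −0.38 to 0.65 when samples were left out. Rpl39l was well above background on 2 KO and 2 WT arrays. It measured −3.37, −6.32, −6.14 and −3.81 in KO samples 1 to 4, against −3.25, −5.36, −2.58 and −5.70 in WT samples 1 to 4. KO samples 1 and 4 and WT samples 1 and 3 were the high ones. The fitted difference was −0.68 with a standard error of 0.96 (95% interval −2.91 to 1.54), and since the other 4 arrays were not well above background it gives neither a size nor a rank. Rpl3, the parent of Rpl3l, had a difference of 0.0020, fitted without KO sample 1, whose spot was marked as an outlier.

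Leaving Rpl39l aside, the lowest differences were those of Rpl21 and Rpl17, both −0.11 and both named after their values were seen. Rpl21 was read by a dim probe (mean signal 151) and had a standard error of 0.22. Its difference was −0.41 within slide 1 and 0.18 within slide 2. Rpl17, a protein at the tunnel exit, had a standard error of 0.16, and gave 0.068 through a second probe. It measured 5.24, 4.77, 4.90 and 4.89 in KO samples 1 to 4, against 5.14, 5.10, 5.07 and 4.93 in WT samples 1 to 4. KO sample 1 was the highest of all and the other KO samples lay below every WT sample.

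Of 29 genes with several probes, 27 had more than 1 probe that passed the filter. Their probes' differences spanned a median of 0.090 on the log2 scale, and 15 of the 27 genes had probes on both sides of 0. The widest span was 0.77, in Rps15a (named after its values were seen), where a dim second probe gave −0.68. Probe sequences were not used here, and ribosomal protein genes have many processed pseudogenes, so a probe may read more than its gene.

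The machinery around the ribosomal proteins was likewise not called, with 0 genes at a limma adjusted p under 0.05 in any of the lists that follow. Other mRNAs known to carry a TOP tract had a median log2 difference of 0.0091 over 20 genes, 12 above 0 and 8 below. Among them Eif3h, a subunit of the initiation factor that holds the small subunit, measured 5.03, 4.93, 4.93 and 4.85 in KO samples 1 to 4, against 4.51, 4.82, 4.54 and 4.66 in WT samples 1 to 4. Each KO sample lay above each WT sample, and the difference was 0.30 with a standard error of 0.15. The nucleolar chaperone Npm1 differed by 0.16.

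Initiation factors had a median of 0.0085 over 36 genes, 19 above 0 and 17 below, and Eif3i differed by 0.15. Elongation and termination factors had a median of 0.0051 over 11 genes, 6 above and 5 below, with the release factor gene Etf1 at 0.18 and the translocase gene Eef2 at 0.14. Genes that control ribosome production and its mRNAs had a median of −0.064 over 13 genes, 4 above and 9 below. In that list Mtor differed by −0.46 with a standard error of 0.21 and its inhibitor Tsc1 by −0.38 with a standard error of 0.24.

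Ribosome assembly factors had a median of 0.079 over 43 genes, 27 above 0 and 16 below, with 1 at an unadjusted p under 0.05. That gene was Riok2, a kinase of late small subunit maturation, which measured 1.30, 1.32, 0.88 and 0.92 in KO samples 1 to 4, against 0.55, 0.46, 0.75 and 0.15 in WT samples 1 to 4. Each KO sample lay above each WT sample. The difference was 0.63 with a standard error of 0.20 (limma adjusted p = 0.9999). Noc3l, of large subunit assembly, differed by 0.43 with a standard error of 0.26. RNA polymerase I genes had a median of 0.028 over 13 genes, with Taf1a at −0.67 (standard error 0.44) and Polr1e at 0.33 (0.22).

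Mitochondrial ribosomal proteins, which build a separate ribosome for the mitochondrial genome, had a median of 0.083 over 78 genes, with 56 above 0, 22 below and 1 at an unadjusted p under 0.05. It was Mrpl37, with −0.086, 0.043, 0.29 and −0.020 in KO samples 1 to 4, against −0.63, −0.086, −0.32 and −0.51 in WT samples 1 to 4. KO sample 1 and WT sample 2 were level at −0.086, with the other KO samples above and the other WT samples below. The difference was 0.44 with a standard error of 0.18. Mrps16 differed by 0.38.

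**Figure D5:**
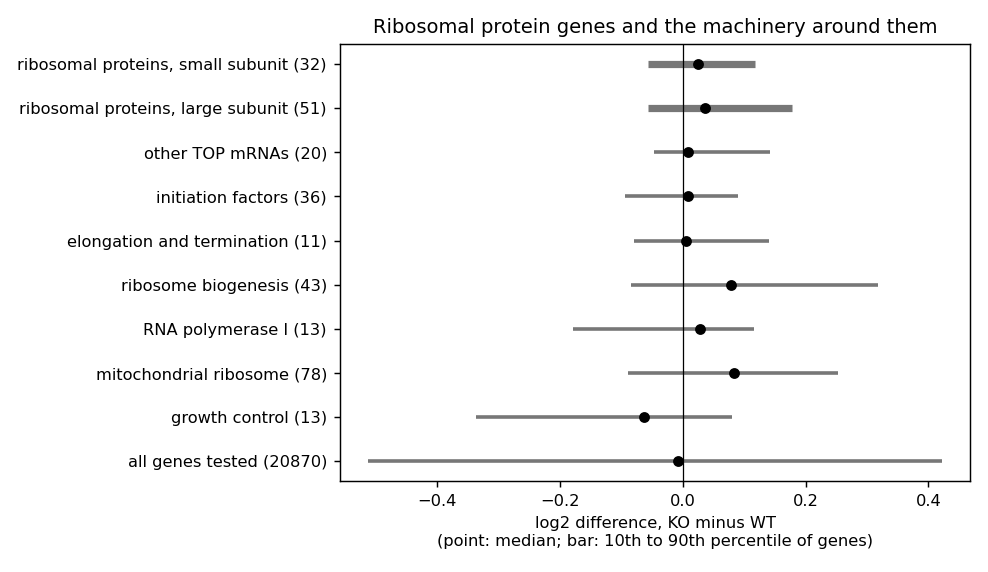
Median log2 difference, KO minus WT (points), and the 10th to 90th percentile of genes (bars) for small and large subunit ribosomal protein genes, lists of translation and ribosome assembly genes, and all genes tested (number of genes in brackets). Every median lies between −0.064 and 0.083, and the bar of all genes is the widest.

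The series as a whole was described by a few checks. Array scale, as the 75th percentile of processed intensity, ranged over 638 to 926 in KO and 619 to 788 in WT samples, and 0 spots were saturated. Atf3 itself differed by 0.25 (two-sided exact permutation p = 0.314) with KO sample 1 the highest, so its level was no lower in KO samples, and where its probe lies against the deletion is not stated, so it does not check the labels. Macrophage markers were present, with a mean log2 level over 11 of 12 listed genes of 3.57 to 4.73 in KO samples and 3.54 to 4.78 in WT samples. The lowest of each genotype was its sample 4. T cell markers (9 of 10 listed) averaged −1.33 to −0.38 in KO and −1.70 to −0.45 in WT samples, and B cell markers (5 of 5) −2.59 to −0.97 in KO and −2.76 to −1.52 in WT samples, with KO sample 1 the highest for B cells. NK cell markers (7 of 7) averaged −2.26 to −0.086 in KO and −2.65 to −1.29 in WT samples. Fibroblast markers (7 of 7) averaged −0.53 to 2.24 in KO and −0.67 to 1.74 in WT samples, tumour epithelial markers (8 of 8) −1.35 to 2.82 in KO and −0.89 to 2.05 in WT samples, and neutrophil markers (5 of 6) −2.24 to 1.70 in KO and −1.49 to 1.65 in WT samples. In each genotype, sample 4 was the highest for fibroblast and for tumour epithelial markers. Endothelial markers (6 of 7 listed, Tek being too dim to be kept) averaged −3.19, −2.79, −3.18 and −2.0 in KO samples 1 to 4. They averaged −2.24, −1.36, −2.70 and −0.77 in WT samples 1 to 4. KO sample 1 was lowest and WT sample 4 highest, the reverse of their places in the ribosomal protein shift. The reversal did not extend to KO sample 3, nearly as low, or WT sample 2, next highest. Their median ribosomal protein deviations were −0.0033 and 0.065. Nor was the endothelial list alone in placing these samples at an end. WT sample 4 was also the lowest of all for macrophage markers, and KO sample 1 the highest for B cell and neutrophil markers. Of the 6 endothelial genes, 4 were well above background on all 8 arrays. The mean over the NK cell list was 0.74 higher in KO, with 7 of 7 genes above 0, and that over the T cell list 0.45 higher, with 8 of 9 above 0. The KO minus WT mean of the endothelial list was −1.02, with 0 of 6 genes above 0. None of these marker genes had a limma adjusted p under 0.05. The part of these cell types in the shift, and in the differences between KO and WT, was not tested.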

How the data were processed

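Agilent 1-colour arrays were read by the authors with Feature Extraction 10.7.1.1, per the file headers (the submitters' processing notes name 10.5). The deposited files hold spot intensity values that the software had background-corrected. The authors' deposited value table, of unstated scale and with column medians of 92.0 to 94.0, served as an alternative. After removal of control spots and spots marked as outliers, log2 processed signal was averaged per probe, less the 75th percentile of its array. Probes were named through their accession in a RefSeq table of GRCm38.p6 (25097 of 41174). The others kept their accession, which was counted as a gene. The brightest probe stood for its gene and was kept if well above background on at least 4 of 8 arrays, which left 20870 genes. KO and WT were compared by limma 3.58.1 (lmFit, eBayes; R 4.3.3), with two-sided p-values adjusted by Benjamini-Hochberg over all genes, and the code was tested on simulated data. Gene lists are described by counts and medians, with no list test.

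Genes named are the 12 with the smallest p (1 of them is not reported here, though all counts and medians include it), the highest, the lowest and the 3 most spread, fixed role and paralog genes, and 2 per surrounding list; any other is said to be named after its values were seen. The members and lists were chosen with earlier results of these data known. Between same-numbered KO and WT samples, deviations from their group's mean had correlations of 0.30, 0.14, 0.70 and 0.51, all over 0.1, and on that basis the numbers were taken as pairs, although KO sample 4 with WT sample 2 (0.15) and KO sample 2 with WT sample 4 (0.14) correlated as much as pair 2, and the labels do not say what numbers share. Slide 1 carried samples 1 and 2 of each genotype, and slide 2 the rest. The alternatives were normexp background correction, other scales and filters, the deposited table, slide and replicate blocks, each slide alone, other variance models, array weights, the mean of a gene's probes and each sample left out. The number of arrays limits the precision.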

Additional observations from a re-analysis of the deposited data

Results flagged for a closer look

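In 6 of the 71 groups of 4 values behind the named genes, 1 sample stood far from the other 3, measured as its gap to the nearest sample over the group's whole range. Chance gives about 5% of groups, and over all ribosomal protein genes 12 of 165 groups (7.27%) stood out, 6 of them through KO sample 1, 4 through WT sample 4 and 2 through WT sample 2. In KO samples, sample 1 stood high for Rpl30 (level 5.08, ratio 0.859), Rps6 (6.04, ratio 0.866) and Rps3 (6.25, ratio 0.957). In WT samples, sample 2 stood high for Rpl13a (5.69, ratio 0.858) and Rpl5 (5.61, ratio 0.954), and sample 4 stood low for Rpl36a (5.32, ratio 0.837). The samples that stand out in Rpl30, Rps6, Rps3 and Rpl36a are those with the shared shift of the ribosomal protein genes on the 75th percentile scale.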

How the results depend on the processing

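The count of called genes was 0 under every alternative except without KO sample 1, where it was 1, and the count of ribosomal protein genes with an unadjusted p under 0.05 was 0 under all of them. The replicate block changed no call, and moved the difference of Rpl3 to −0.019. Genes with an unadjusted p under 0.05 numbered 406 with normexp, 1161 with no filter, 226 in slide 2 alone, 445 without KO sample 2 and 1576 with the replicate block, against 696. Normexp also moved medians to 0.20 for all ribosomal protein genes, 0.21 for the small and 0.20 for the large subunit, 0.21 for other TOP mRNAs, 0.15 for initiation factors, 0.15 for elongation and termination factors, 0.15 for ribosome assembly and 0.14 for RNA polymerase I. The elongation and termination median was 0.025 in the deposited table and −0.019 in slide 2 alone, ribosome assembly 0.0037 in slide 1 alone, and RNA polymerase I 0.12 in slide 2 alone.

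Small differences changed sign, and the cause was not tested. With normexp Rpl3l gave −0.074, Rplp2 0.18, Rpl11 0.11, Rpsa 0.20, Rps3 0.039, Rps19 0.066, Rpl13 0.19, Rps9 0.14, Rpl17 0.13 and Rpl7l1 0.13. Array weights gave −0.20 for Rpl3l, 0.018 for Rpsa and −0.017 for Rpl36al. Centring on these genes gave −0.0070 for Rps6 and −0.013 for Rpl36al. The mean of a gene's probes gave −0.0048 for Rplp0, 0.16 for Rpsa and −0.022 for Rpl22. The bright-probe scale gave 0.00061 for Rpsa and 6.5e-05 for Rps9, quantile normalization 0.00056 and 0.013. The deposited table gave 0.039 for Rpsa, −0.0028 for Rpl22, 0.041 for Rpl13 and 0.020 for Rpl7l1. Slide 1 alone gave 0.031 for Rplp2, 0.085 for Rpsa, −0.10 for Rpl3, −0.16 for Rpl27a, 0.0076 for Rps9 and 0.018 for Rpl7l1. Slide 2 alone gave 0.012 for Rpl13 and −0.044 for Rpl18, and slide as a block −0.012 for Rpl3.

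With each sample left out in turn, signs changed within these ranges: the medians of all ribosomal protein genes −0.030 to 0.057, small subunit −0.051 to 0.056, large subunit −0.025 to 0.061, other TOP mRNAs −0.032 to 0.040, initiation −0.031 to 0.035, elongation and termination −0.028 to 0.036, RNA polymerase I −0.014 to 0.063 and growth control −0.15 to 0.011, and the differences of Rpl3l −0.38 to 0.65, Rplp0 −0.037 to 0.14, Rplp2 −0.096 to 0.031, Rpl5 −0.027 to 0.094, Rps6 −0.065 to 0.075, Rpsa −0.060 to 0.044, Rps19 −0.12 to 0.0025, Rpl22 −0.020 to 0.061, Rps27 −0.061 to 0.13, Rpl3 −0.029 to 0.061, Rpl36al −0.060 to 0.055, Rpl13 −0.12 to 0.051, Rpl18 −0.010 to 0.088, Rpl26 −0.011 to 0.12, Rpl27a −0.0018 to 0.27, Rps9 −0.076 to 0.053 and Rpl7l1 −0.087 to 0.065. Rpl39, Rpl31, Rpl13a, Rps27a, Rpl14, Rpl27, Rpl30, Rpl10, Rpl28, Rpl22l1 and Rpl34 stayed above 0 in every alternative run. They were named for the smallest p on these same arrays, so a kept sign gives no separate support.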
